A study of Homo sapiens with 6 samples.

Results

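The genes described here are 60 genes of mitosis, chosen by name from the 28395 genes of the deposited expression table. They code for the mitotic cyclin-dependent kinase and its partners, the Polo and Aurora kinases, the spindle checkpoint, the kinetochore, the regulators of the anaphase-promoting complex (APC/C), condensin, the spindle and cytokinesis machinery, and the transcription factors FOXM1 and MYBL2. All 60 symbols were found in the table. Gene expression was measured by RNA-seq in HCC827, an established human lung adenocarcinoma line with an activating mutation of EGFR. The cells were given either the vehicle DMSO (3 libraries) or 1 μM erlotinib, a small molecule that blocks the EGFR kinase (3 libraries), both for 24 h. No other allele or agent separated the groups, and the p-values measure only the spread between these samples. The study states that its experiments were repeated independently, but the labels do not say whether the 3 libraries of a condition came from separate cultures. The study used these libraries to compare the groups gene by gene and in gene sets.

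Cells that enter mitosis switch on CDK1 with cyclin A and cyclin B, condense their chromosomes with condensin and topoisomerase II, and build a kinetochore on each centromere. The kinetochore holds the spindle microtubules, and the spindle checkpoint keeps the APC/C inactive until every chromosome is attached. Most of these genes are transcribed mainly in late S phase, G2 and mitosis of dividing cells. The promoters of many carry a cell cycle genes homology region (core letters TTTGAA), which the DREAM complex and the MuvB core with MYBL2 and FOXM1 bind, and CCAAT boxes, which the factor NF-Y binds. In bulk RNA, fewer cells in G2 or mitosis and less RNA of these genes per cell cannot be told apart.

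Promoter sequences were at hand for 50 of the 60 genes (RefSeq, GRCh38.p14, from 250 bases before the start site to 50 after it). Other start sites of a gene were not searched, so a gene without the letters here may hold them elsewhere. The window held TTTGAA on either strand in 31 of these 50 promoters (62%), against 9.61% of the promoters of 10640 tested genes and 15.4% of all 27305 promoters. CCAAT on either strand was present in 34 of the 50 (68%), against 36.3% of tested genes and 35.7% of all promoters, and 44% of the mitotic promoters held it at least 2 times against 13.3% of tested genes. Both motifs together occurred in 23 (46%), against 4.05% of tested genes. The E2F letters TTTCCCGC or TTTGGCGC were found in 4 of the 50 (8%), against 3.7% of tested genes. Matches on opposite strands can overlap, by up to 2 bases for CCAAT with ATTGG and by up to 4 for TTTGGCGC with its reverse. Counting only CCAAT matches that share no base, 44% of the mitotic promoters and 13.2% of those of tested genes held at least 2. The promoters of 5 genes, chosen after their values were seen, are printed 5′ to 3′ on the strand of the gene, with TTTGAA (or its reverse, TTCAAA) and CCAAT (or ATTGG) in capitals. CDK1 (chr10:60778081-60778380, plus strand), CDC20 (chr1:43358731-43359030, plus strand) and TOP2A (chr17:40417847-40418146, minus strand) hold both motifs and were lower with erlotinib by over 2 log2 units. CDC25B (chr20:3786701-3787000, plus strand), the member that moved least, and MYBL2 (chr20:43666864-43667163, plus strand), the member that fell most, both hold neither. In all, 8 of the 50 promoter windows held neither, and the others were those of CDC25C, CDCA5, CENPE, CENPI, FBXO5 and MELK.
CDK1: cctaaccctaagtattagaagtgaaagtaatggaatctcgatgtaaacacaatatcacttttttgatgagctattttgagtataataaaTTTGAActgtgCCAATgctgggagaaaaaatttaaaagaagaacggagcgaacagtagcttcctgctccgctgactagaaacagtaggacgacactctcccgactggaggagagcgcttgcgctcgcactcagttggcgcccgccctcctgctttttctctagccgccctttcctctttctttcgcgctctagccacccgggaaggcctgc
CDC20: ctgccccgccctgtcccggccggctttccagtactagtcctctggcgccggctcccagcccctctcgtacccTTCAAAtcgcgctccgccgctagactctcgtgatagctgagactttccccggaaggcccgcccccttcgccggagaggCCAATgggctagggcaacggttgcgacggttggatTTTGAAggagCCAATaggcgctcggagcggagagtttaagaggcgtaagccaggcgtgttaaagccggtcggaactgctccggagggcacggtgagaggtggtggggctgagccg
TOP2A: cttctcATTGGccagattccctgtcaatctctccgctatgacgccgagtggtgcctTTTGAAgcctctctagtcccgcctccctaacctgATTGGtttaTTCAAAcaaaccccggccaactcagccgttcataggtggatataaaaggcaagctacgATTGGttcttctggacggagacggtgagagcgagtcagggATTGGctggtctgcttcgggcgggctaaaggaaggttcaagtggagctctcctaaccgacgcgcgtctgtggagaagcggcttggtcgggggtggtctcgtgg
CDC25B: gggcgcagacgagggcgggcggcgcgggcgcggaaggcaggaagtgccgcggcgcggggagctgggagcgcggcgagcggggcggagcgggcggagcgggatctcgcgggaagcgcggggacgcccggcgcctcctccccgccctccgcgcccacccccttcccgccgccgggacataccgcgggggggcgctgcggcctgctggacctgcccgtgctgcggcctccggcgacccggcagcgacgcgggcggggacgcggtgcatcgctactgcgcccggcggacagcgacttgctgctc
MYBL2: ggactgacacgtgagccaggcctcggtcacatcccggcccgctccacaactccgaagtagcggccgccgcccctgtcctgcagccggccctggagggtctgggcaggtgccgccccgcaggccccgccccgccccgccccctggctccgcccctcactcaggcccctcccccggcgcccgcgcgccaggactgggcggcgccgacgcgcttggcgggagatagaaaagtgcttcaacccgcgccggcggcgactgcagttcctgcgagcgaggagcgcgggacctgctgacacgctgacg
In CDK1 the TTTGAA began 161 bases before the start site, and the CCAAT 150 bases before it. CDC20 held 2 matches of each motif and TOP2A 2 of TTTGAA and 4 of CCAAT. Members with the letters in this window were not further down, by median, than those without. The median log2 fold change, erlotinib against DMSO, was -2.45 for the 30 tested members with TTTGAA and -2.80 for the 19 without, and it was -2.52 with CCAAT and -2.71 without. A match of letters is a description of the sequence, and binding was not measured.

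With erlotinib, 59 of the 60 mitotic genes fell. The values are signal, the reads on a gene divided by the size factor of its library, from libraries with 20858083, 24641819 and 21172884 reads on genes in DMSO and 21944007, 20760204 and 21678395 with erlotinib. Summed over the 60 genes, the signal was 177071, 188458 and 174057 in the DMSO libraries and 35824, 36428 and 33413 in the erlotinib libraries. These genes took 0.748%, 0.824% and 0.768% of the reads in DMSO and 0.177%, 0.177% and 0.165% with erlotinib, and the groups lay far apart. A filter of a mean signal of at least 10 over the 6 libraries left 59 of the 60 genes to test, and the test called 59 of the 59 lower at an adjusted p under 0.05 (limma on log2(signal + 1), Benjamini-Hochberg over 14215 genes). Of all genes tested, 35.4% were lower by the same test, and 35.3% were higher, a direction in which 0 of the 59 members passed. With scaling to the total count the shares of all tested genes were 27.8% lower and 43.3% higher. No member was higher at an unadjusted p under 0.05 in limma, nor by edgeR, limma-voom or DESeq2. The median log2 fold change was -2.60 for the 59 genes and 0.02 for all tested genes. A fall of at least 2 log2 units was seen in 53 of the 59, against 2.53% of all tested genes, and those 53 made up 14.7% of the 360 genes with such a fall. In 58 of the 59, every erlotinib library was below every DMSO library, which held with a lower call for 34.4% of all tested genes. The exception was CDC25B.

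The replicates were alike but not equal. The coefficient of variation of a member's signal over 3 libraries had a median of 8.17% in DMSO (1.2% to 27.7%) and of 7.43% with erlotinib (1.65% to 32.8%). DMSO 2 held the highest value of its group for 37 members, and DMSO 1 the lowest for 31. The library in column 6 of the table held the lowest value of the erlotinib group for 46 members. Chi-square over its degrees of freedom was 4.17 to 24.5 between libraries of a group, above sampling noise, and none was counted as a duplicate. In each of the per-gene values that follow, the 3 DMSO libraries come first.

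**Figure D1:**
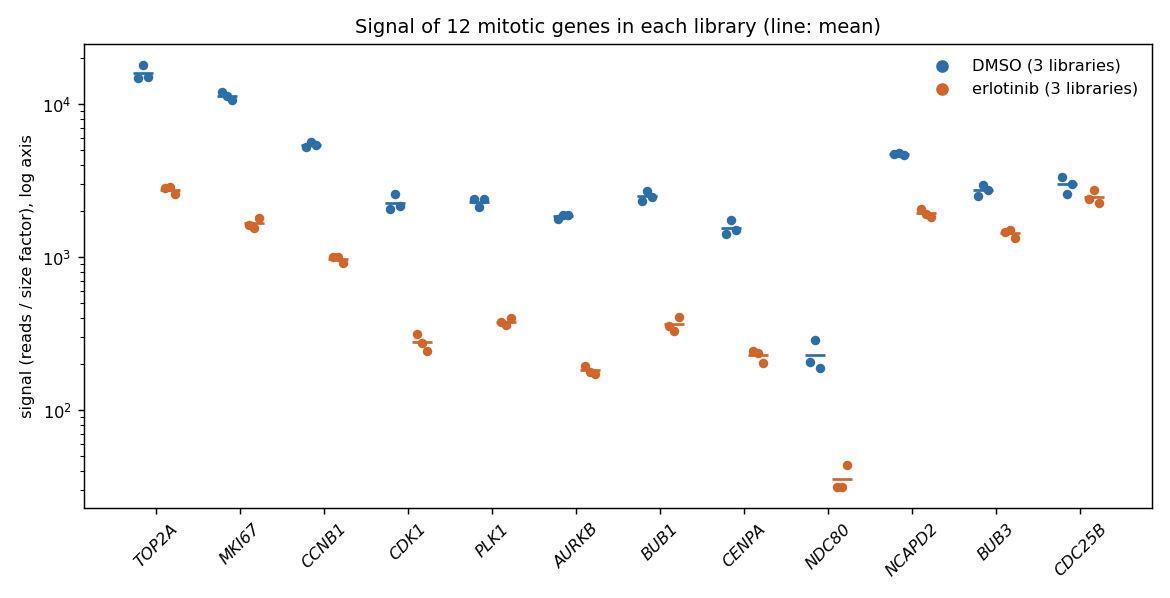
The signal (reads divided by size factor, log axis) of 12 mitotic genes is plotted for the 3 DMSO and the 3 erlotinib libraries, with each group mean as a line. TOP2A lies at 14706 to 17891 in DMSO and 2584 to 2842 with erlotinib, and the 2 groups overlap for CDC25B alone among the genes shown.

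CDK1, its cyclins and the CDC25 phosphatases that switch CDK1 on were lower as a group, with 8 of 8 past the test and a median log2 fold change of -2.44. CDK1 (chr10:60778331-60794852), the kinase that drives entry into mitosis, had a signal of 2068, 2572 and 2140 in DMSO and 313.8, 275.2 and 241.5 with erlotinib. Its log2 fold change was -3.03 (SE 0.11, limma adjusted p = 1.5e-15). The erlotinib libraries held 12.2% of the mean DMSO level. Cyclin B1 (CCNB1, chr5:69167150-69178245), the mitotic partner of CDK1, had 5192, 5627 and 5417 in DMSO and 997.6, 993.9 and 907.1 with erlotinib, a log2 fold change of -2.49 (SE 0.07, limma adjusted p = 7.2e-17). The log2 fold changes of the other cyclins were -2.99 for CCNA2, -2.39 for CCNF and -1.80 for CCNB2.
The 3 CDC25 phosphatases moved by very different amounts. CDC25A (chr3:48157146-48188417), which also acts at the start of S phase, had 1395, 1419 and 1432 in DMSO and 177.2, 167.3 and 173.2 with erlotinib, a log2 fold change of -3.03 (SE 0.10, limma adjusted p = 5.5e-16). CDC25C, which acts on CDK1 at mitotic entry, had a log2 fold change of -2.14. CDC25B (chr20:3786951-3806115), which is thought to start the activation of CDK1, had 3347, 2568 and 3008 in DMSO and 2381, 2731 and 2237 with erlotinib. One erlotinib library lay above the lowest DMSO library. Its log2 fold change was -0.28 (SE 0.09, limma adjusted p = 0.0103). That call was lost with scaling to the total count (-0.10, limma adjusted p = 0.332) and with no filter (-0.28, limma adjusted p = 0.226). It was also lost without DMSO 1 (-0.19, limma adjusted p = 0.0765) and without the erlotinib library in column 6 (-0.21, limma adjusted p = 0.0731).

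The 5 other mitotic kinases lay closest together of the role groups with more than 2 genes, with log2 fold changes between -2.88 and -2.60 and a median of -2.73. PLK1 (chr16:23678889-23690367), the Polo kinase that acts from mitotic entry to cytokinesis, had 2380, 2116 and 2394 in DMSO and 373.7, 361.3 and 398.8 with erlotinib, a log2 fold change of -2.60 (SE 0.09, limma adjusted p = 7e-16). PBK, a kinase active in mitosis, had 659.1, 1045 and 672.1 in DMSO and 101.5, 110.9 and 101.1 with erlotinib, a log2 fold change of -2.88 (SE 0.16, limma adjusted p = 1.2e-12). The DMSO libraries were spread more for PBK than for PLK1. PLK4, which starts centriole duplication, had a log2 fold change of -2.74, MELK one of -2.73 and AURKA, the spindle pole Aurora kinase, one of -2.60. The table also has a row for AURKAP1, a pseudogene much like AURKA, so the level of AURKA itself is uncertain.
The chromosomal passenger complex carries Aurora B to centromeres, where it corrects wrong attachments. AURKB (chr17:8204731-8210575), its kinase, had 1775, 1873 and 1872 in DMSO and 194.7, 177.2 and 173.2 with erlotinib, a log2 fold change of -3.33 (SE 0.10, limma adjusted p = 9.6e-17). INCENP (chr11:62124011-62153169), its scaffold, had 3508, 3181 and 3359 in DMSO and 838.8, 890 and 761 with erlotinib, a log2 fold change of -2.01 (SE 0.08, limma adjusted p = 6.7e-15). Kinase and scaffold thus kept 9.87% and 24.8% of their DMSO means. CDCA8, which codes for borealin, had a log2 fold change of -2.70.

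All 5 spindle checkpoint genes were lower, but over a wide range. MAD2L1 (chr4:120055623-120066848), whose product blocks the APC/C activator CDC20, had 1416, 1977 and 1497 in DMSO and 183.6, 179.2 and 161.9 with erlotinib, a log2 fold change of -3.20 (SE 0.12, limma adjusted p = 3.4e-15). BUB1 (chr2:110637528-110678063), a checkpoint kinase at the kinetochore, had 2306, 2702 and 2463 in DMSO and 355.3, 330.6 and 405.3 with erlotinib, a log2 fold change of -2.77 (SE 0.10, limma adjusted p = 7.8e-16). BUB3 (chr10:123154402-123170467), the protein that brings BUB1 and BUBR1 to the kinetochore, had 2503, 2967 and 2742 in DMSO and 1463, 1494 and 1326 with erlotinib. Its log2 fold change was only -0.94 (SE 0.08, limma adjusted p = 1.4e-09), and the groups did not overlap. The log2 fold changes of TTK, the MPS1 kinase, and BUB1B, which codes for BUBR1, were -2.65 and -2.26.
In the outer kinetochore, which binds microtubules, the 6 tested genes of 7 passed the test as lower, at a median log2 fold change of -2.71. KNL1 (chr15:40594249-40664342), the platform for BUB1 and BUB3, had 1141, 1401 and 1154 in DMSO and 168.9, 187.1 and 114.2 with erlotinib, a log2 fold change of -2.99 (SE 0.15, limma adjusted p = 2.5e-13). NDC80 (chr18:2571557-2616635), the microtubule-binding subunit, had 207.6, 285.1 and 189.4 in DMSO and 31.38, 31.68 and 44 with erlotinib, a log2 fold change of -2.63 (SE 0.23, limma adjusted p = 1.7e-09). CENPF (chr1:214603195-214664571), a large protein of the kinetochore's outer corona, had 8607, 9518 and 7920 in DMSO and 1922, 1914 and 1844 with erlotinib, a log2 fold change of -2.19 (SE 0.07, limma adjusted p = 4e-16). NDC80 had the fewest reads of the 59 tested genes per length and the largest standard error. NUF2, the partner of NDC80, had a log2 fold change of -2.70, SPC24 one of -2.87 and the kinesin CENPE one of -2.71.

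SPC25 (chr2:168861521-168890430), the partner of SPC24 in the NDC80 complex, was the member that could not be tested. It was listed at 0 in 5 libraries and had 2 reads in DMSO 3. A transcript of SPC25 aligned over 100% of its length at an identity of 99.85% to an alternate contig of the GRCh38 assembly. The tested members had no such copy among 261 alternate contigs. Of all genes of the mitotic set and of the cell division lists described further on (the cell type markers aside), 4 were too low to test (SPC25, KIFC1, SKA1 and ARHGAP11A), and all 4 had a copy on an alternate contig. The reads counted were those that mapped uniquely, and the part of these copies in the values near 0 was not tested. Among the tested members, AURKA, RACGAP1, PTTG1, PLK1, CDC20, CCNB2, UBE2C, PRC1 and NUSAP1 each have a transcript of another annotated gene that aligned over at least 50% of their length at an identity of at least 90%. Their levels are uncertain for the same reason.

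The 5 centromere and inner kinetochore genes, on which the outer kinetochore is built, had the lowest median of the role groups with 5 or more tested genes, at -2.76. CENPA (chr2:26786056-26794589), the histone H3 variant that marks centromeres, had 1409, 1740 and 1507 in DMSO and 242.7, 237.6 and 202.2 with erlotinib, a log2 fold change of -2.76 (SE 0.11, limma adjusted p = 6.7e-15). CENPI (chrX:101098204-101181859), a subunit of the constitutive centromere network, had 1120, 1190 and 1010 in DMSO and 103.4, 113.8 and 114.2 with erlotinib, a log2 fold change of -3.31 (SE 0.12, limma adjusted p = 1.7e-15). CENPN (chr16:81007214-81033107), which binds CENPA nucleosomes, had 2248, 2482 and 2336 in DMSO and 525.1, 477.2 and 509.2 with erlotinib, a log2 fold change of -2.22 (SE 0.08, limma adjusted p = 2.9e-15). The network subunits CENPK and CENPM had log2 fold changes of -2.90 and -2.47.
The regulators of the APC/C and of sister separation were lower in 9 of 9 cases, with a median of -2.41. CDC20 (chr1:43358981-43363203), the activator of the APC/C in mitosis, had 1457, 1220 and 1457 in DMSO and 305.5, 327.7 and 304.2 with erlotinib, a log2 fold change of -2.13 (SE 0.10, limma adjusted p = 1e-13). CDCA3 (chr12:6844798-6851286), known to aid the degradation of WEE1, had 1834, 1874 and 1882 in DMSO and 197.5, 215.8 and 239.6 with erlotinib, a log2 fold change of -3.10 (SE 0.10, limma adjusted p = 2.8e-16). PTTG1 (chr5:160421855-160428744), which codes for securin, the inhibitor of separase, had 128.2, 145.8 and 170.2 in DMSO and 43.37, 51.48 and 40.25 with erlotinib, a log2 fold change of -1.69 (SE 0.22, limma adjusted p = 7.6e-07). Separase itself (ESPL1) had a log2 fold change of -2.72. PTTG1 has close copies elsewhere in the genome, PTTG2 and PTTG3P, so its level is uncertain. CDCA5 (sororin) and SGO1 (shugoshin), which protect sister cohesion, had log2 fold changes of -2.80 and -2.88, and the ubiquitin-conjugating enzymes of the APC/C, UBE2C and UBE2S, had -2.41 and -2.26. FBXO5 (EMI1), an inhibitor of the APC/C, had a log2 fold change of -2.17.

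**Figure D2:**
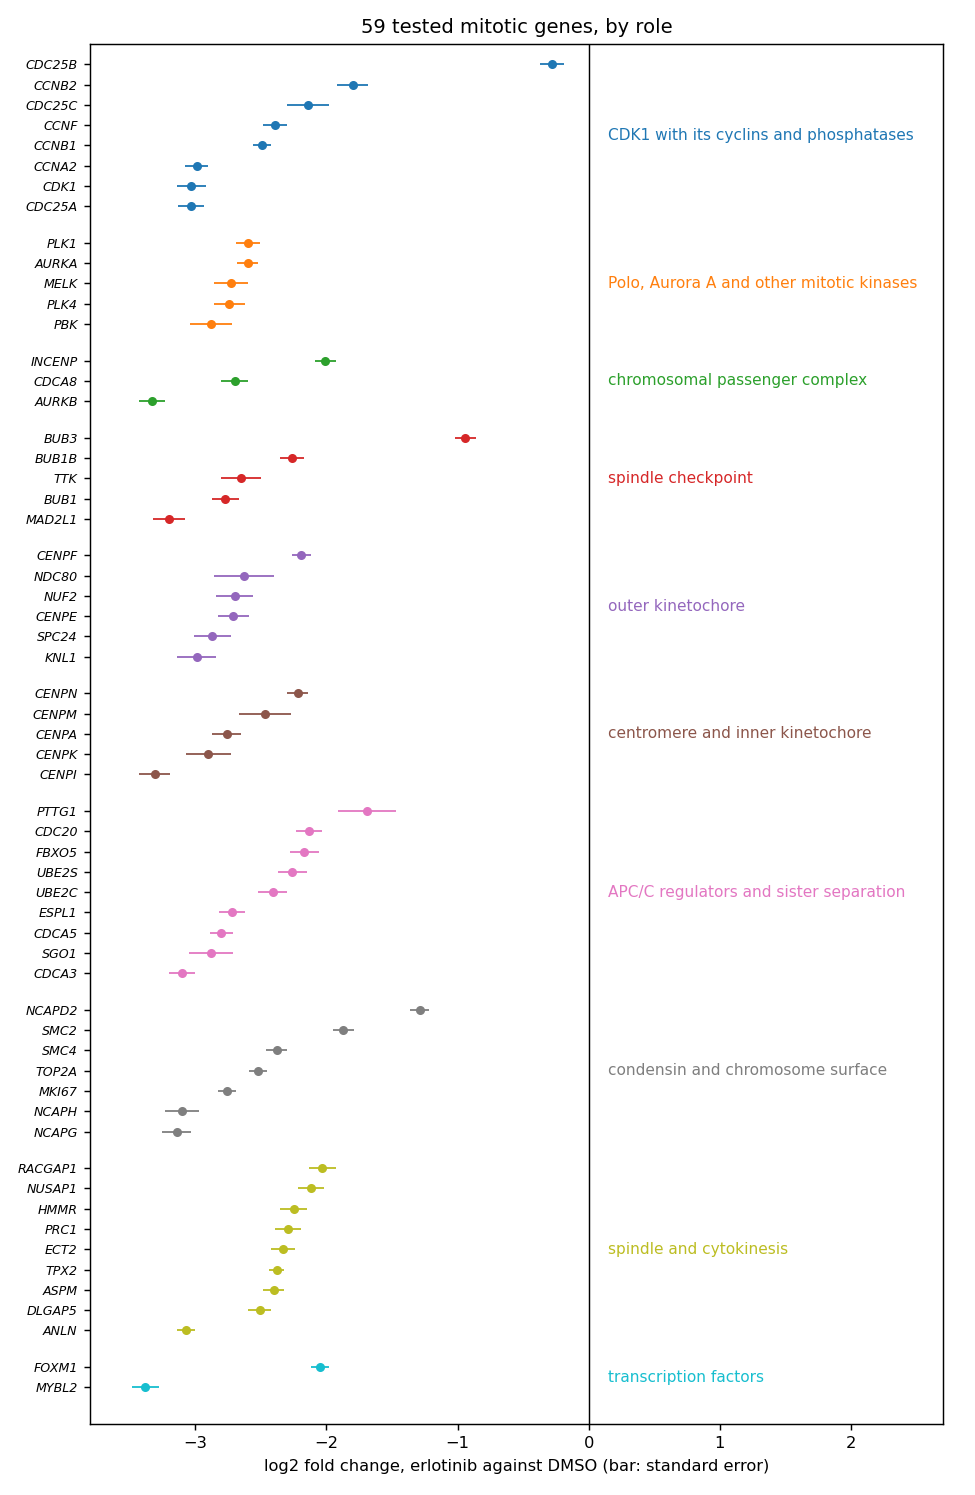
The log2 fold change (erlotinib against DMSO, horizontal axis) of the 59 tested mitotic genes is plotted as a point with its standard error as a bar, grouped by role, and a vertical line marks 0. The points run from -3.38 for MYBL2 to -0.28 for CDC25B, and 53 of them lie at -2 or below.

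All 7 condensin and chromosome surface genes were lower (median -2.52 on the log2 scale), and their summed mean signal was 46149 in DMSO and 9144 with erlotinib. TOP2A (chr17:40388525-40417896), topoisomerase II alpha, which untangles sister chromatids, had 14706, 17891 and 15032 in DMSO and 2835, 2842 and 2584 with erlotinib, a log2 fold change of -2.52 (SE 0.07, limma adjusted p = 9.7e-17). MKI67 (chr10:128096659-128126423), the Ki-67 protein that coats mitotic chromosomes and marks cycling cells, had 11887, 11225 and 10567 in DMSO and 1614, 1555 and 1797 with erlotinib, a log2 fold change of -2.76 (SE 0.07, limma adjusted p = 1.5e-17). The subunits of condensin I fell unequally. NCAPG (chr4:17810979-17844865) had 1430, 1427 and 1313 in DMSO and 156, 163.3 and 150.7 with erlotinib, a log2 fold change of -3.14 (SE 0.11, limma adjusted p = 5.5e-16). NCAPD2 (chr12:6494102-6531955) had 4713, 4765 and 4623 in DMSO and 2060, 1913 and 1814 with erlotinib, a log2 fold change of -1.29 (SE 0.07, limma adjusted p = 8.9e-13). NCAPH, the kleisin of the same complex, had a log2 fold change of -3.10, and the ATPase subunits SMC4 and SMC2, which condensin II shares, had -2.38 and -1.87.
The 9 spindle and cytokinesis genes were lower with a median of -2.33. ANLN (chr7:36389862-36453791), anillin of the cleavage furrow, had 12355, 13341 and 11899 in DMSO and 1509, 1583 and 1381 with erlotinib, a log2 fold change of -3.07 (SE 0.07, limma adjusted p = 3.4e-18). RACGAP1 (chr12:49989162-50033440), a subunit of centralspindlin, had 2583, 2858 and 2457 in DMSO and 617.4, 756.3 and 564.5 with erlotinib, a log2 fold change of -2.03 (SE 0.10, limma adjusted p = 1.6e-13). A pseudogene row much like RACGAP1 is also in the table, so the level of RACGAP1 is uncertain. The other 7 lay between ANLN and RACGAP1. The log2 fold change was -2.38 for the spindle assembly factor TPX2, -2.29 for the midzone bundler PRC1, -2.33 for the RhoA exchange factor ECT2 and -2.40 for the spindle pole protein ASPM.
The 2 transcription factors that act on genes of this kind were themselves lower by different amounts. MYBL2 (chr20:43667114-43716482), B-MYB, had 5839, 4590 and 5255 in DMSO and 450.3, 594 and 466.2 with erlotinib, a log2 fold change of -3.38 (SE 0.10, limma adjusted p = 1.1e-16), the largest fall of the 59. FOXM1 (chr12:2857680-2877174) had 8551, 7451 and 8086 in DMSO and 1961, 1947 and 1900 with erlotinib, a log2 fold change of -2.05 (SE 0.07, limma adjusted p = 5.2e-16). FOXM1 overlaps RHNO1, whose mean signal was 2777 in DMSO and 1403 with erlotinib. The strand that was counted is not stated in the sources, so reads of overlapping genes may not be told apart. The same holds for UBE2S with RPL28 (2560 and 3539), for CDC25C with FAM53C (3021 and 2258), for PBK with ESCO2 (1265 and 80.5), for NCAPG with LCORL (749.1 and 705.2) and for CCNA2 with EXOSC9 (323.2 and 158.9).

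Ratios of related genes were taken within each library, as the difference of log2(signal + 1), for 11 pairs. They depend little on how libraries are scaled, and only through the pseudocount of 1. In 9 of the 11 the groups did not overlap, and the exact permutation test (two-sided, 3 against 3) gave p = 0.1, the smallest it allows, or 0.12 after Benjamini-Hochberg adjustment over the 11 pairs. This exact test cannot go below 0.1 with 3 libraries against 3. How many other pairs of tested genes would separate in this way was not counted, so the 9 of 11 have no background share. The log2 ratio of CDC25B to CDC25C was 2.64, 2.38 and 2.77 in DMSO and 4.37, 4.33 and 4.68 with erlotinib, a rise of the mean by 1.86. BUB3 to BUB1 went from 0.12, 0.14 and 0.15 in DMSO to 2.04, 2.17 and 1.71 with erlotinib. FOXM1 to MYBL2 had 0.55, 0.70 and 0.62 in DMSO and 2.12, 1.71 and 2.02 with erlotinib. Aurora A stood higher against Aurora B by 0.73, cyclin B1 higher against cyclin A2 by 0.51, and SMC2 higher against SMC4 by 0.51. The ratio was lower by 0.68 for cyclin B1 to cyclin B2, by 0.89 for CDC25A to CDC25C and by 0.51 for CENPE to CENPF. For PLK1 to PLK4 (difference 0.15, exact p = 0.6, adjusted 0.66) and UBE2S to UBE2C (0.14, exact p = 0.7, adjusted 0.7), the groups overlapped.

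**Figure D3:**
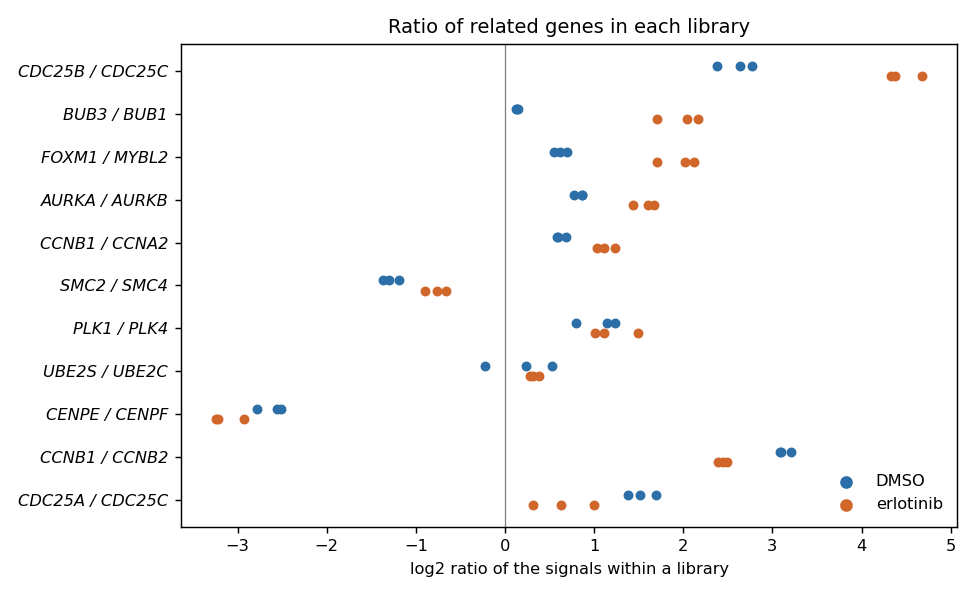
The log2 ratio of the signals of 2 related genes (horizontal axis) is plotted for each of the 3 DMSO and 3 erlotinib libraries, for 11 pairs. CDC25B to CDC25C lies at 2.38 to 2.77 in DMSO and 4.33 to 4.68 with erlotinib, and the points of the 2 groups mix for PLK1 to PLK4 and for UBE2S to UBE2C.

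Levels can be compared between genes only per length, here as mean signal per kb of exon (GENCODE union of exons). In DMSO the order of the 59 genes began with TPX2 (2973 per kb), TOP2A (2491), CCNB1 (2224), ANLN (2090) and MYBL2 (1883), and ended with SGO1 (107), PTTG1 (75) and NDC80 (64). With erlotinib CDC25B, at place 16 in DMSO (762 per kb), came first (628 per kb), ahead of TPX2 (568), TOP2A (432) and CCNB1 (397). BUB3 went from place 39 (335 per kb) to place 13 (175 per kb), and NCAPD2 from place 18 (726 per kb) to place 6 (298 per kb). MYBL2 went from place 5 to place 12 (181 per kb), and AURKB from place 14 (821 per kb) to place 30 (81.1 per kb). NDC80 was last in both conditions, with 10 per kb with erlotinib.

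**Figure D4:**
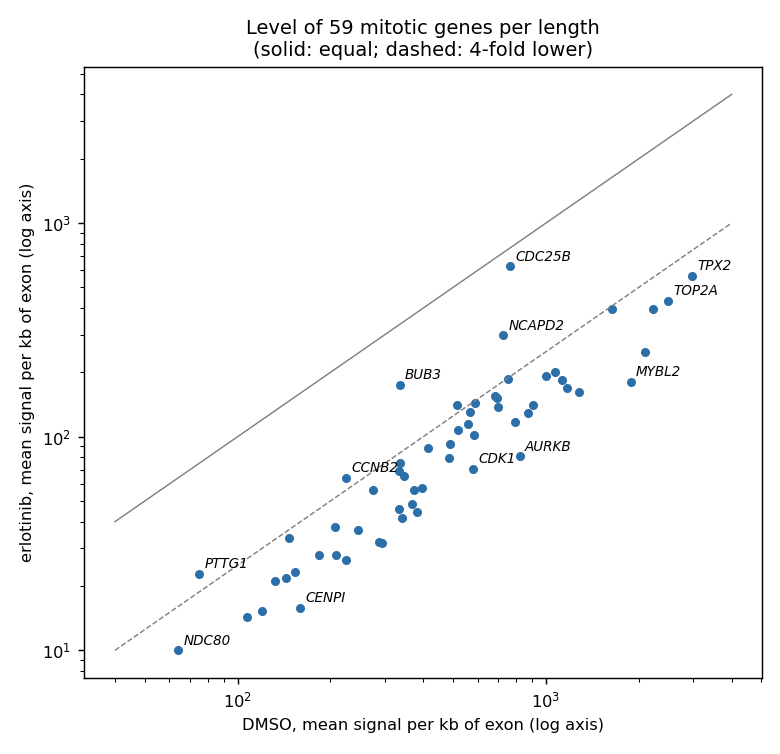
The mean signal per kb of exon in DMSO (horizontal, log axis) is plotted against that with erlotinib (vertical, log axis) for the 59 tested genes, with a solid line at equal levels and a dashed line at a 4-fold lower level. CDC25B (762 and 628), BUB3 (335 and 175) and NCAPD2 (726 and 298) lie nearest to the solid line.

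Other genes of the same machines were counted from lists, and each list is described by its counts and median with no test of the list. For all these counts, the shares of all tested genes were 35.4% lower and 35.3% higher. Among 16 further centromere genes, 15 were lower with a median of -1.78. HJURP, the chaperone that loads CENPA, had 3154, 3297 and 2929 in DMSO and 346.1, 428.7 and 360.4 with erlotinib, a log2 fold change of -3.05 (SE 0.09, limma adjusted p = 1.2e-16). CENPC did not pass the test (0.26, SE 0.26). Of 16 further outer kinetochore and checkpoint genes 15 could be tested and 14 were lower (median -1.71), led by SKA3 (-3.48, SE 0.13, limma adjusted p = 4.7e-15), while PMF1 did not pass the test (-0.01, SE 0.12). Mitotic kinesins were lower in 11 of 11 tested cases (median -2.55), led by KIF15 (-2.96, SE 0.18, limma adjusted p = 6.4e-12). The 3 subunits particular to condensin II were lower, with log2 fold changes of -2.38 (NCAPD3), -2.27 (NCAPG2) and -1.38 (NCAPH2).
Of 15 genes of the APC/C itself 10 were lower (median -0.46), beside 35.4% of all tested genes, and 4 did not pass the test. Across the alternatives run, 8 to 10 were lower. CDC27 was the lowest (-1.66, SE 0.08, limma adjusted p = 2.4e-13). The 15 include FZR1, which like CDC20 is an activator of the complex (-0.27, SE 0.09, limma adjusted p = 0.0114). ANAPC2 was higher, with 1248, 1125 and 1374 in DMSO and 1618, 1576 and 1355 with erlotinib (0.28, SE 0.09, limma adjusted p = 0.00933). The call of ANAPC2 was lost with no filter and without the erlotinib library in column 4. The 11 genes of cohesin, which holds sisters together, and its loaders had a median of -0.37. In this list 8 of the 11 were lower, beside 35.4% of all tested genes, and 5 of the 11 with scaling to the total count, beside 27.8% of all tested genes under that scaling. The list was led by the acetyltransferase ESCO2 (-3.96, SE 0.13, limma adjusted p = 3.9e-16), while the loader MAU2 was higher (0.53, SE 0.08, limma adjusted p = 7e-06).

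Among 12 regulators of mitotic entry and exit, 8 were lower and 1 was higher, at a median of -0.72. Of all tested genes, 35.4% were lower and 35.3% were higher. With scaling to the total count 2 of these 12 were higher, beside 43.3% of all tested genes under that scaling. PKMYT1, a kinase that inhibits CDK1, had 1716, 1270 and 1559 in DMSO and 167, 118.8 and 119.8 with erlotinib, a log2 fold change of -3.48 (SE 0.14, limma adjusted p = 7.4e-15). The phosphatase CDC14B was higher, with 1707, 1972 and 1786 in DMSO and 3978, 3807 and 3927 with erlotinib (1.10, SE 0.07, limma adjusted p = 2e-11). Of 17 tested further spindle and cytokinesis genes 16 were lower (median -2.25), led by FAM83D (-2.69, SE 0.08, limma adjusted p = 1.2e-16). NUMA1, which anchors spindle poles and is a nuclear protein in interphase, went the other way with 3099, 2652 and 3018 in DMSO and 7120, 7095 and 7064 with erlotinib (1.28, SE 0.07, limma adjusted p = 9.1e-13). DNA replication genes, of the phase before, were lower in 32 of 32 cases with a median of -2.14, from MCM10 (-4.41, SE 0.21, limma adjusted p = 1.2e-13) to RPA2 (-0.82).
Of 12 subunits of DREAM and MuvB, which are known to bind promoters of mitotic genes, 7 were lower (median of the list -1.01), led by MYBL1 (-1.86, SE 0.07, limma adjusted p = 6.1e-15). The 3 that were higher are a smaller share of the list than the 35.3% of all tested genes. RBL2, the p130 pocket protein of DREAM in resting cells, had 1339, 1479 and 1232 in DMSO and 3239, 2815 and 2970 with erlotinib, a log2 fold change of 1.16 (SE 0.08, limma adjusted p = 6.8e-11). TFDP2 (1.12) and E2F5 (0.63) were higher too. With scaling to the total count 5 of the 12 were higher, beside 43.3% of all tested genes under that scaling.

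**Figure D5:**
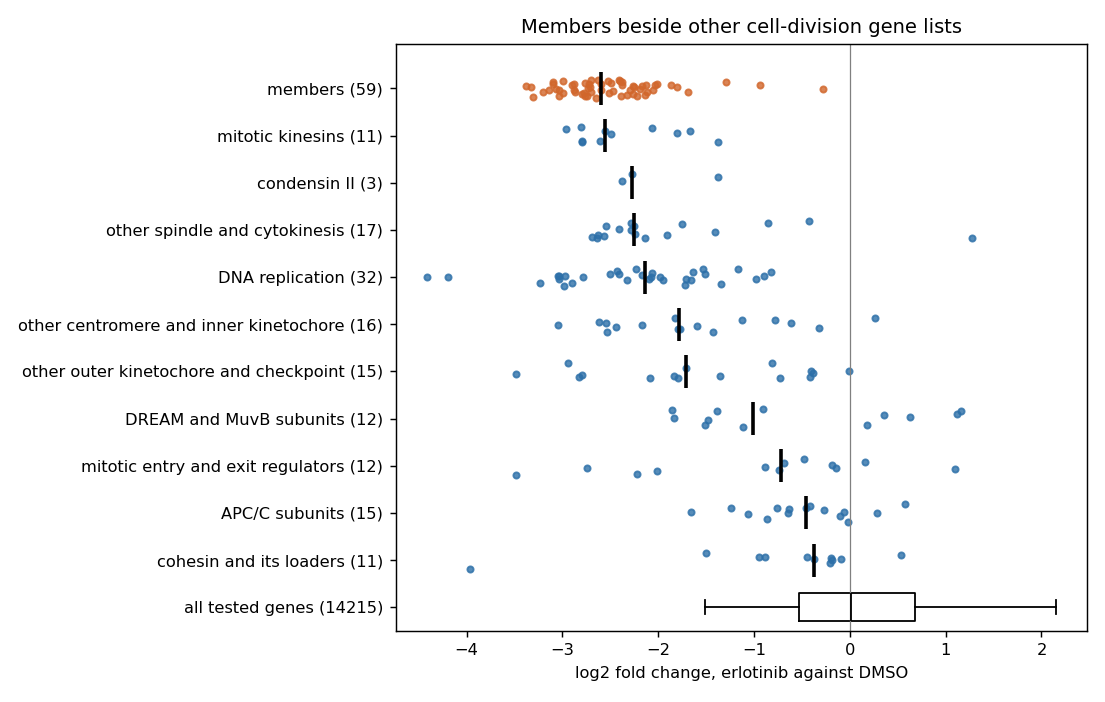
The log2 fold change (erlotinib against DMSO) of each tested gene is plotted for the 59 members and for 10 other cell division lists, with the list median as a black bar, and all 14215 tested genes are drawn as a box (quartiles, with whiskers from the 5th to the 95th percentile). The members have a median of -2.60, the mitotic kinesins -2.55, the APC/C subunits -0.46 and cohesin with its loaders -0.37.

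The cell type was checked against its markers. The 5 epithelial markers were all expressed, with KRT19 the most abundant and EPCAM at 10104, 9813 and 9638 in DMSO and 9802, 9268 and 9386 with erlotinib. Their summed signal was 159670, 139790 and 147904 in DMSO and 109259, 109542 and 109318 with erlotinib, and 3 of the 5 were lower, KRT8 (-0.83), KRT18 (-1.25) and KRT19 (-0.39), while EPCAM and CDH1 did not pass the test. Of 6 fibroblast markers only COL1A1 was high enough to test, and the list summed to 73.7, 75.2 and 109 in DMSO and 260, 223 and 215 with erlotinib, with COL1A2, COL3A1, DCN and PDGFRB at 0 in at least 1 library. Of 6 leukocyte markers only CD68 was tested, which held nearly all of a sum of 2787, 2796 and 3172 in DMSO and 3241, 3538 and 3472 with erlotinib, and PTPRC was at 0 in 2 DMSO libraries. The 4 endothelial markers summed to 34, 15.8 and 20.3 in DMSO and 58.1, 46.5 and 45.9 with erlotinib. Of the 4 tested markers of these 3 other cell types 3 were higher, COL1A1 (1.47, SE 0.19, limma adjusted p = 6.8e-07), CD68 (0.23, SE 0.07, limma adjusted p = 0.00762) and VWF (2.74, SE 0.64, limma adjusted p = 0.00066), and PECAM1 did not pass the test. Beside these counts, 35.4% of all tested genes were lower and 35.3% were higher by the same test. VWF rested on few reads, 3, 1 and 7 in DMSO and 38, 26 and 23 with erlotinib. The part of these markers in the fall of the mitotic genes was not tested.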

How the data were processed

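Polyadenylated RNA of HCC827 cells was sequenced in 6 libraries, 3 after DMSO and 3 after 1 μM erlotinib (24 h each). Per the study's methods and the submitters' processing notes, Bowtie2 2.3.4 aligned the read pairs to GRCh38 and featureCounts 1.6.3 tallied those with a unique position on each gene. The deposited signal is that tally over 1 size factor per library, since 100% of them are whole multiples of the library's smallest value above 0 (tolerance 0.001 reads). The strand counted is not given in the sources used here. Bowtie2 does not split reads at introns, so reads across exon junctions can be lost, and reads shared with a copy of a gene are not unique.

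limma 3.58.1 with a trend was fitted to log2(signal + 1) of 14215 genes (mean signal 10 or more), two-sided, with Benjamini-Hochberg adjustment and a threshold of 0.05. Fold changes of low genes are understated on this scale. edgeR 4.0.16, limma-voom and DESeq2 1.42.0 were run on the recovered reads in R 4.3.3. The other alternatives were scaling to the total count, TMM factors, no filter, at least 10 reads in every library, pseudocounts of 0.1 and 10, an adjusted p under 0.01 and each library left out in turn. Tested on simulated data of this comparison (14098 genes, 200 changed), limma called 181 of the 197 changed genes that passed the filter, and false calls made up 3.72% of all calls. The simulated libraries were divided by their known size factors, and far fewer genes changed than were called here. Error from scaling was therefore no part of this test, and 3.72% is not the error rate of the calls reported. The members and lists were chosen with earlier results of these data known. The genes named are, in each role group, those with the largest and the smallest change, 12 central genes of mitosis, and of each other list the gene with the largest change and the largest against the majority. Others were named after their values were seen. Copies were searched with minimap2 2.31-r1302 among GENCODE 44 transcripts and 261 alternate contigs (at least 50% aligned, at least 90% identity). All 28395 rows stayed in the library totals, and 475 of them have no symbol.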

Additional observations from a re-analysis of the deposited data

How the results depend on the processing

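Each alternative left 58 or 59 members lower and 0 higher. The median log2 fold change of the members was -2.60. It moved by no more than the median standard error of a member's log2 fold change, except with scaling to the total count. With that scaling it was -2.42, and the median of all tested genes moved from 0.02 to 0.19. Over all tested genes, 3955 to 5096 were lower and 4240 to 6156 were higher. Of the single members, CDC25B was the only one that lost its call: its log2 fold change lay between -0.38 and -0.10, and its adjusted p of 0.0103 (limma) also missed a threshold of 0.01. With no filter SPC25 could be tested and had a log2 fold change of -0.55 (limma adjusted p = 0.6). The tested members and their median kept their direction under the alternatives run, and so did the ratios except UBE2S to UBE2C, whose groups overlap (0.14, and -0.06 without DMSO 2). The groups of PLK1 to PLK4 overlap too. Its difference (0.15) all but vanished without DMSO 2 or without the erlotinib library in column 6. The median of all tested genes, 0.02, was -0.04 with at least 10 reads in every library. Medians and single genes of the other lists were not recomputed, only their counts. No paired analysis was possible because the erlotinib columns of the table are numbered 4 to 6 and do not carry the replicate numbers of the labels. The largest standard errors were those of NDC80 (0.23), PTTG1 (0.22) and CENPM (0.20), whose lowest read counts in a library were 32, 43 and 54. SGO1 also had a lowest count of 54 and a standard error of 0.17, and the part of depth was not tested.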

Other observations

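Rows of the table that are processed copies of members were looked up after the values of the members had been seen. AURKAP1, a pseudogene that aligns to 59.0% of an AURKA transcript at an identity of 95.25%, had a signal of 2204, 2648 and 2198 in DMSO and 450.3, 457.4 and 400.6 with erlotinib, a log2 fold change of -2.42 (SE 0.09, limma adjusted p = 4.9e-15). It lies within RAB3GAP2, which had 1618, 1813 and 1520 in DMSO and 1694, 1651 and 1742 with erlotinib and did not pass the test (0.04, limma adjusted p = 0.64). A transcript of RAB3GAP2 also aligned to AURKA, over 75.6% of the AURKA transcript at an identity of 94.8%. RACGAP1P, which aligns to 61.1% of a RACGAP1 transcript at 93.63%, had 998.3, 997.4 and 995.4 in DMSO and 272.2, 264.3 and 257.4 with erlotinib (-1.91, SE 0.10, limma adjusted p = 5.5e-13). PTTG3P, a copy of PTTG1, had 35.17, 62.22 and 47.09 in DMSO and 7.383, 13.86 and 16.85 with erlotinib (-1.88, SE 0.41, limma adjusted p = 0.00039). Whether reads of AURKA, RACGAP1 and PTTG1 were counted on these rows was not tested, so the levels of these 3 members are uncertain. The same holds for CDC20 (CDC20P1, 91.1% aligned at 96.47%), CCNB2 (CCNB2P1, 76.7% at 91.59%), UBE2C (UBE2CP3, 57.9% at 90.44%), PLK1 (82.8% at 92.21%), PRC1 (91.0% at 98.47%) and NUSAP1 (97.8% at 100%), for whose copies no row was matched.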
